A study of Xiphophorus multilineatus with 4 samples.

Results

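The genes npas4a, nr4a1, dusp2 and socs3a are 4 of the 18872 transcripts counted in the brains of adult male Xiphophorus multilineatus, a live-bearing swordtail fish. They were found by their names in the supplementary list of differentially expressed transcripts of the study, which pairs a name with 97 of its 131 transcript identifiers, and each name was paired with 1 row of the count table. That list was made by comparing the same 4 brains, so the difference between the groups in these genes is what placed them there. It is given below as a description. No p of these genes is printed, and which of them passed the threshold of the study under each test is listed as a property of the fits and not as evidence of a difference. All 4 genes passed the filter on low values, which kept the 18474 transcripts with a count in any brain.

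The males were of the Y-II size class, a genetically influenced class of adult male size, and were F2 fish reared in the laboratory from females caught in the wild. Fish 15 and 11 grew up in the high quality juvenile environment, called HQJE, alone in a tank from an early age and with Tetramin and brine shrimp without limit. Fish 17 and 18 grew up in the low quality one, called LQJE, in crowded groups with Tetramin given once daily. Each environment is thus represented by 2 brains. As adults all 4 males were housed singly on the high quality adult diet of Spirulina flakes, brine shrimp and bloodworms. Food and crowding differed together between the groups and cannot be told apart. The 4 labels carry the same date, which is not explained, and the order and hour of dissection are not given in the sources used here. RNA was taken from the entire brain, in which a smaller number of cells of a type cannot be told apart from less RNA per cell.

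In vertebrates, neurons that fire strongly take up calcium, and this switches on a first set of genes within minutes, called immediate early genes. Some of them encode transcription factors that pass the signal on to later genes, and others encode inhibitors that bring the signaling pathways back to rest. The gene npas4a encodes a transcription factor of the bHLH-PAS family, which in mammals is nearly restricted to neurons and is induced by calcium entry. The gene nr4a1 encodes an orphan nuclear receptor that is induced by many stimuli, neuronal firing among them. The gene dusp2 encodes a phosphatase of the nucleus that removes phosphate from activated MAP kinases. The gene socs3a encodes a suppressor of cytokine signaling, which in mammals is induced by STAT3 and blocks the kinase JAK at cytokine receptors, the leptin receptor included. Neuronal activity itself was not measured in these brains.

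The counts summed to 14260762 in LQJE fish 17, the fewest, and to between 21321437 and 25531496 in the other brains. TMM factors lay between 0.967 and 1.04. Expression is given as CPM, the count scaled to a common library size after TMM normalization. Transcript lengths were not used, so levels are compared between brains and not between genes. A count of 0 in a brain would allow up to 3 counts, or 0.120 to 0.217 CPM, and each gene was above this floor in every brain. Counting intervals (exact Poisson for a level, exact binomial for a ratio, 95%) cover counting error only. The summed level of the genes matched from a list of neuron markers was highest in LQJE fish 17. Of 16 listed genes 5 could be matched by name (cacna1ab, bsnb, dlgap2a, BSN and STMN1), all with counts in every brain, and their summed level was 148 CPM in fish 17 and between 30.7 and 35.3 CPM in the other brains. Most of the sum in fish 17 was cacna1ab at 86.0 CPM and BSN at 37.3 CPM, while STMN1 was higher in fish 18 (8.33 CPM) than in fish 17 (6.81 CPM). The 5 had been put on the marker list from the same supplementary list, so their match was given in advance and their level was itself chosen on these brains. The other listed neuron markers were not matched, so the sum is no measure of neuron content.

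The transcription factor genes are described first. The npas4a transcript (ENSXMAT00000013217) was read 77 times in LQJE fish 17, 404 times in LQJE fish 18, 404 times in HQJE fish 15 and 641 times in HQJE fish 11. This corresponds to 5.58, 16.1, 18.4 and 29.0 CPM, respectively. Fish 17 was low, fish 11 was high, and fish 18 and 15 were close to each other, so that the groups did not overlap but nearly met. The ratio of fish 15 over fish 18, the neighboring brains of the groups, was 1.14, with a 95% counting interval from 0.992 to 1.31 that includes 1. The group means were 23.7 ± 7.49 CPM for HQJE and 10.8 ± 7.44 CPM for LQJE (SD, n = 2 each). HQJE over LQJE, this was a log2 fold change of 1.09 (standard error 0.484) or 2.13-fold.

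The nr4a1 transcript (ENSXMAT00000003600) was read 77, 212, 230 and 469 times in fish 17, 18, 15 and 11, or 5.58, 8.45, 10.5 and 21.2 CPM. In CPM, fish 11 was farther above fish 15 of its own group than the group means were apart. The ratio of fish 15 over fish 18 was 1.24 (95% counting interval from 1.02 to 1.50). The group means were 15.8 ± 7.59 CPM for HQJE and 7.01 ± 2.03 CPM for LQJE (SD, n = 2 each), a log2 fold change of 1.16 (standard error 0.385) or 2.23-fold.

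The dusp2 transcript (ENSXMAT00000014996), the phosphatase gene, was read 19, 53, 122 and 219 times in fish 17, 18, 15 and 11, or 1.38, 2.11, 5.55 and 9.90 CPM. Here both HQJE brains stood well clear of both LQJE brains. The lowest ratio between the groups, fish 15 over fish 18, was 2.63, with a 95% counting interval from 1.89 to 3.70. The group means were 7.72 ± 3.07 CPM for HQJE and 1.74 ± 0.519 CPM for LQJE (SD, n = 2 each). The log2 fold change of 2.12 (standard error 0.398), or 4.34-fold, was the largest of the 4 genes, and dusp2 also had the fewest counts.

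The socs3a transcript (ENSXMAT00000012541), the cytokine signaling inhibitor, was read 81, 166, 206 and 383 times in fish 17, 18, 15 and 11, or 5.87, 6.61, 9.37 and 17.3 CPM. The LQJE brains were nearly equal, and the HQJE brains were apart from each other. The ratio of fish 15 over fish 18 was 1.42 (95% counting interval from 1.15 to 1.75). The group means were 13.3 ± 5.61 CPM for HQJE and 6.24 ± 0.525 CPM for LQJE (SD, n = 2 each), a log2 fold change of 1.09 (standard error 0.319) or 2.13-fold.

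**Figure D1:**
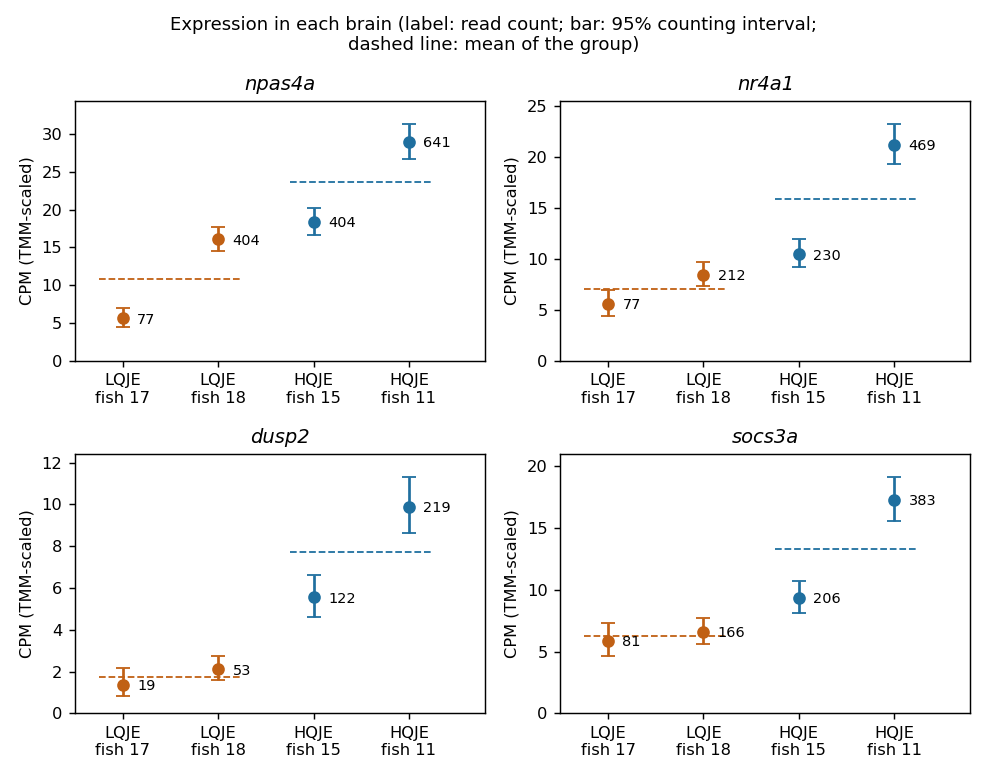
Expression of npas4a, nr4a1, dusp2 and socs3a in CPM (vertical axes from 0) in the 2 LQJE and the 2 HQJE brains; labels give read counts, bars the exact 95% counting interval and dashed lines the mean of each group. In every panel fish 17 is lowest and fish 11 highest, and the HQJE points lie above the LQJE points, as a ratio of the nearest brains by least in npas4a (18.4 against 16.1 CPM) and by most in dusp2 (5.55 against 2.11 CPM).

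The study set its threshold at an unadjusted p no greater than 0.01 together with a change of at least 2-fold. In edgeR's quasi-likelihood test over all 18474 transcripts, dusp2 was past this threshold as higher expressed in HQJE fish and the other 3 genes were not, where 0.0487% of all transcripts were past it in this direction and 0.189% in either direction. The groups did not overlap in any of the 4 genes, where HQJE fish were higher without overlap in 18.8% of all transcripts. Since the list was chosen on this difference, nothing is read from either count. The edgeR exact test placed all 4 genes past it, as it did 0.265% of all transcripts in this direction. With the edgeR likelihood ratio test and with DESeq2 3 of 4 were past it (npas4a was not). In this direction 53 and 18 of the 18474 transcripts were past it, respectively. By the exact test the smallest log2 fold change among the 4 genes was 1.09, that of socs3a. Among all transcripts higher in HQJE fish with a p of 0.01 or less, the closest inside the 2-fold limit was xdh at 1.02 and the closest outside it was a transcript without a name at 0.99.

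The fold changes depended on single brains. For npas4a the log2 fold change was 0.55 (standard error 0.317) without LQJE fish 17 and 2.11 (standard error 0.379) without LQJE fish 18. Without HQJE fish 11 or fish 15 it moved less, to 0.74 and 1.39. For nr4a1 it was 0.57 (standard error 0.339) without HQJE fish 11 and 1.58 (standard error 0.302) without HQJE fish 15. For socs3a it was 0.58 (standard error 0.288) without fish 11 and 1.47 (standard error 0.247) without fish 15. In both genes the fits without an LQJE brain lay between these values, from 0.90 to 1.53 for nr4a1 and from 1.01 to 1.21 for socs3a. For dusp2 it ranged from 1.65 (standard error 0.463) without fish 11 to 2.51 (standard error 0.553) without fish 18. No gene changed direction in any of these fits, which follows from groups that do not overlap and is no support for the difference. The dusp2 difference stayed above 2-fold in each fit. Each of these fits leaves a group with 1 brain, whose spread is assumed to be that of the other group, so the standard errors cannot be compared with those of the fit to all brains.

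**Figure D2:**
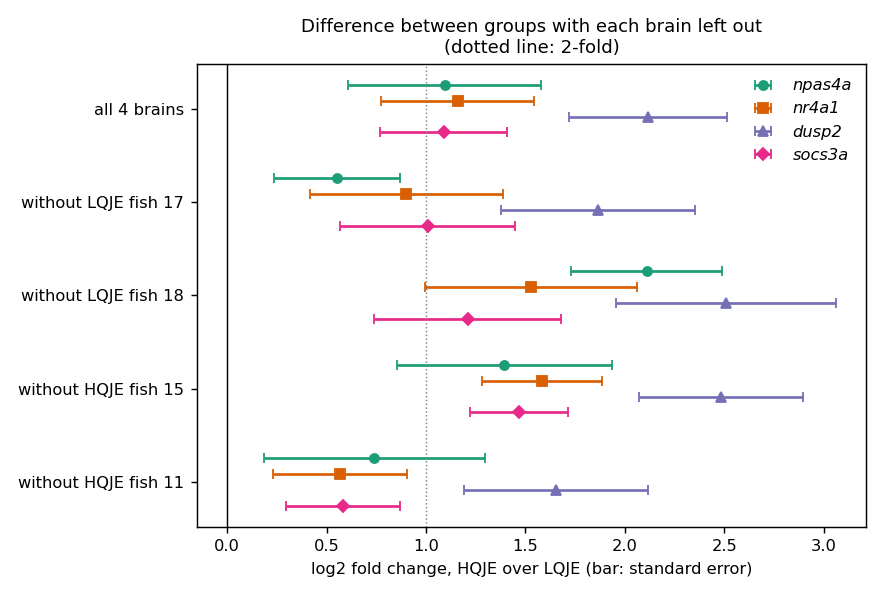
Log2 fold change of HQJE over LQJE (horizontal axis) of each gene in the fit to all 4 brains and in the fits without each brain in turn; bars are the standard error and the dotted line marks 2-fold. All points lie to the right of 0; npas4a moves from 0.55 to 2.11 with the LQJE brain left out, and dusp2 stays at 1.65 or above.

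The order of the brains was the same in all 4 genes, with fish 11 highest, then fish 15, then fish 18, and fish 17 lowest. This order was also found without TMM scaling and with the size factors of DESeq2. Among the 15087 transcripts that averaged at least 1 CPM, 8.05% had this order, and of the 2947 among them in which HQJE fish were higher without overlap, 41.2% had it. Of the 48 transcripts listed by the study as higher expressed in HQJE fish, these 4 genes included, 10 had it (20.8%).

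The comparison that chose the genes did not use which brain of a group was higher. A high fish 11 also raises the HQJE mean, however, so this choice can favor genes with a large difference within HQJE. The shares below are over transcripts not chosen in this way and are a description. Among the HQJE fish the ratio of fish 11 over fish 15 was 1.58 for npas4a, 2.03 for nr4a1, 1.78 for dusp2 and 1.85 for socs3a. The lower ends of their 95% counting intervals were 1.39, 1.73, 1.42 and 1.56, respectively, so each ratio exceeded counting error. Of transcripts with a mean CPM within 2-fold of the gene, 2.30% had a ratio at least as large in the same direction for npas4a, 0.951% for nr4a1, 4.73% for dusp2 and 1.89% for socs3a. The 2 brains of the high quality group thus differed in all 4 genes, by a similar factor.

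The same limit of the choice applies to the LQJE fish, where the ratio of fish 18 over fish 17 was more varied. It was 2.88 for npas4a (95% counting interval from 2.26 to 3.73). Of transcripts of like level 0.197% had a ratio at least as large in the same direction. For nr4a1 the ratio was 1.51 (interval from 1.16 to 1.99), with 3.03% of transcripts of like level. For dusp2 it was 1.53 (interval from 0.893 to 2.74) and for socs3a 1.13 (interval from 0.859 to 1.49), and both intervals include 1. Of transcripts of like level, 5.37% and 25.8% had a ratio at least as large in the same direction, respectively. All these shares leave out differences in the other direction. Between the LQJE brains, differences as large as that of npas4a were more common with fish 17 higher than with fish 18 higher. The 0.197% for npas4a is therefore not the share of transcripts that differed by this factor in either direction. The difference between the low quality brains was thus beyond counting error in npas4a and nr4a1 and not detectable at this depth in dusp2 and socs3a. The ratios of nr4a1 (1.51) and dusp2 (1.53) were nearly equal, and dusp2 had fewer counts. The genes are therefore not divided here by what they encode, and the difference between them was not tested. On the log2 CPM scale the least difference among the 4 genes was 0.65 for fish 11 minus fish 15 and 0.17 for fish 18 minus fish 17. Of all 15087 transcripts 5.04% reached the first, 23.6% the second and 1.21% both.

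**Figure D3:**
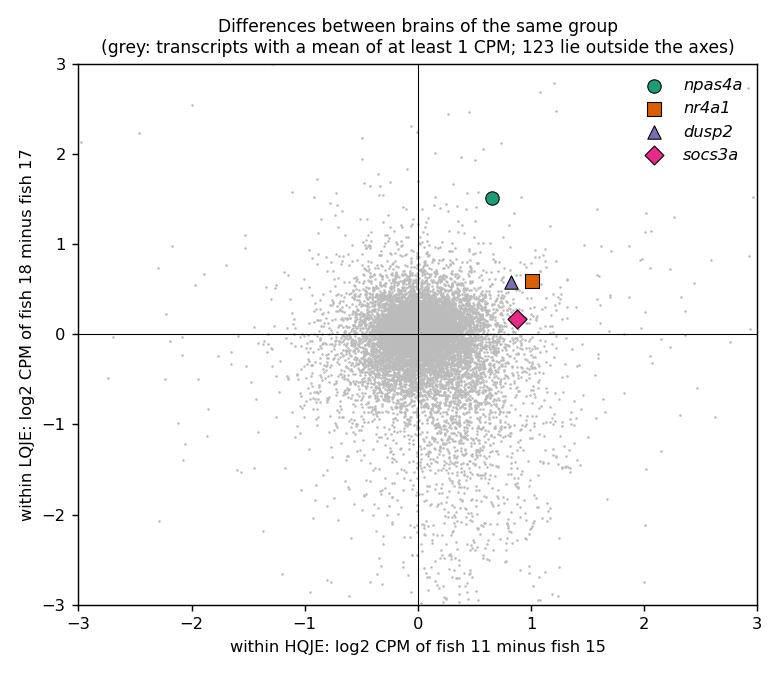
Difference in log2 CPM between the 2 HQJE brains (fish 11 minus fish 15, horizontal axis) and between the 2 LQJE brains (fish 18 minus fish 17, vertical axis); grey points are the 15087 transcripts that averaged at least 1 CPM, of which 123 lie outside the axes. The 4 genes lie to the right of the main cloud, between 0.65 (npas4a) and 1.01 (nr4a1), and above 0 on the vertical axis, from 0.17 (socs3a) to 1.51 (npas4a).

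The spread between brains of a group was also compared with that of other transcripts. The biological coefficient of variation that edgeR estimated was 34.7% for npas4a, 28.3% for nr4a1, 30.3% for dusp2 and 24.7% for socs3a. The median over transcripts of like level was 14.5%, 17.0%, 24.8% and 18.2%, respectively. All 4 genes were above their median, npas4a by most and dusp2 by least.

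Relative to its own mean, each gene was placed from fish 17 to fish 11 on the log2 CPM scale. The range was from -1.39 to 0.96 in npas4a and from -0.85 to 1.06 in nr4a1. It was from -1.32 to 1.44 in dusp2 and from -0.59 to 0.95 in socs3a. The genes differed most in LQJE fish 18, where npas4a was above its mean at 0.12 while dusp2 was below its mean at -0.74.

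**Figure D4:**
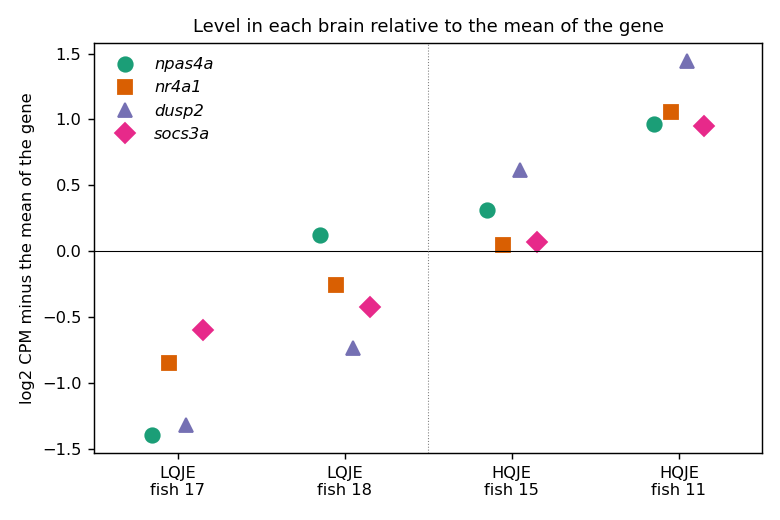
Log2 CPM of each gene minus its mean over the 4 brains (vertical axis) in each brain; points of the same brain are set side by side for legibility. In fish 11 all 4 genes are above their mean, from 0.95 (socs3a) to 1.44 (dusp2), in fish 17 all are below it, from -0.59 (socs3a) to -1.39 (npas4a), and in fish 18 only npas4a is above it (0.12).

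The ratio of the counts of 2 genes within a brain does not depend on the library size. Ratios of nr4a1 over socs3a were 0.951, 1.28, 1.12 and 1.22 in fish 17, 18, 15 and 11. The highest was 1.34 times the lowest, the narrowest range of the 6 pairs of genes, and the 95% counting intervals of the 4 brains overlapped. The nuclear receptor and the cytokine signaling inhibitor thus varied together most closely of the 4 genes, but both were chosen for being higher in HQJE fish. Overlap of the intervals does not show that their ratio is fixed. Ratios of nr4a1 over dusp2 were 4.05 and 4.00 in the LQJE brains and 1.89 and 2.14 in the HQJE brains. Ratios of dusp2 over socs3a were 0.235 and 0.319 in the LQJE brains and 0.592 and 0.572 in the HQJE brains. In relation to both genes dusp2 was thus higher in each HQJE brain than in each LQJE brain. For nr4a1 over dusp2, however, the counting interval of fish 17 (from 2.43 to 7.09) overlapped that of fish 11 (from 1.82 to 2.53). Since these genes were chosen on the group difference, no test was made of it.

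Ratios of npas4a to nr4a1 and to socs3a were lowest in fish 17. The npas4a and nr4a1 counts were equal in fish 17, at 77, and ratios of npas4a over nr4a1 were 1.91, 1.76 and 1.37 in fish 18, 15 and 11. Ratios of npas4a over socs3a were 0.951 in fish 17 and 2.43, 1.96 and 1.67 in the other brains. For npas4a over socs3a the counting interval of fish 17, which ends at 1.32, lay below those of the other brains, and for npas4a over nr4a1 the interval of fish 17 (from 0.720 to 1.39) overlapped that of fish 11 (from 1.21 to 1.54). The ratio of npas4a over dusp2 was highest in fish 18, at 7.62. It was 4.05 in fish 17, 3.31 in fish 15 and 2.93 in fish 11. The counting interval of fish 18 (from 5.71 to 10.4) overlapped that of fish 17 (from 2.43 to 7.09) and lay above those of the HQJE brains.

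**Figure D5:**
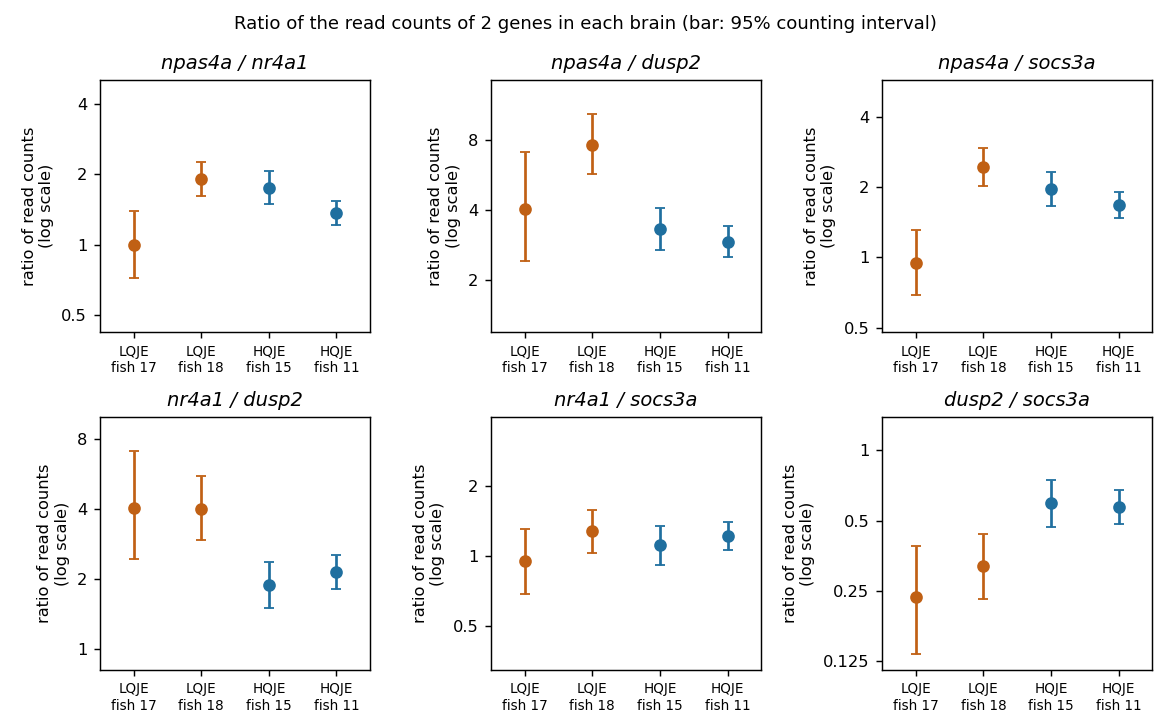
Ratio of the read counts of 2 genes in each brain for the 6 pairs of genes (vertical axes on a log scale of equal span); bars are exact 95% counting intervals. The ratio of nr4a1 over socs3a stays between 0.951 and 1.28, that of nr4a1 over dusp2 falls from about 4 in LQJE brains to 1.89 and 2.14 in HQJE brains, and that of npas4a over socs3a is low in fish 17 at 0.951.

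Likeness of profile was measured as the root mean square difference of log2 CPM over the 4 brains after subtracting the mean of each transcript. It is a description over 4 brains, and transcripts that share the group difference are close by it. The closest pair of the 4 genes was nr4a1 and socs3a, at 0.162. Among 15086 transcripts ranked by likeness, socs3a was at place 2 for nr4a1, and nr4a1 was at place 9 for socs3a. The next closest was npas4a and nr4a1 at 0.360, where nr4a1 was at place 18 for npas4a and npas4a at place 84 for nr4a1. The dusp2 profile was farther off, at 0.515 from npas4a, 0.481 from nr4a1 and 0.539 from socs3a, but few transcripts were closer to it, and nr4a1, npas4a and socs3a were at places 7, 11 and 13. The places were not mutual, since at the same distance of 0.539 dusp2 was at place 3645 for socs3a. The median over all transcripts was between 0.624 for socs3a and 1.11 for dusp2.

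Of the 3 transcripts closest to each gene, 12 in all and all different, 2 carry a name. These were socs3a for nr4a1 and, for dusp2, mogat3a at 0.416, which encodes an acyltransferase that makes diacylglycerol. The other 10 have no name in the sources used here. The closest to npas4a was ENSXMAT00000000548 at 0.119, with 36, 155, 160 and 283 counts in fish 17, 18, 15 and 11. The closest to socs3a was ENSXMAT00000014093 at 0.0907, with 25, 53, 68 and 108 counts in the same brains. HQJE fish were higher without overlap in 11 of the 12, against 18.8% of all transcripts, a count that follows from picking them for their likeness to genes whose groups do not overlap. Of the 12, 4 are on the list of the study.

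Other genes of these pathways could not be followed. The lists drawn up for this purpose held 53 immediate early genes, 11 MAP kinase phosphatases, 28 genes of cytokines, JAK and STAT and 17 genes of neuronal calcium and CREB signaling. Of these 109 names 0 were paired with an identifier of the count table in the sources used here, so their values were not analysed here. They include fos, egr and arc genes and the family partners nr4a2a, dusp1 and socs1a. Teleost fish also carry partner copies of npas4a and socs3a. The sources do not say how reads with several matches were treated, so reads could be shared with such copies.

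Markers of other cell types differed between the brains. Skeletal muscle markers, of which 4 of 7 were matched (tnnt3a, tnnc2, myl1 and mylpfa), summed to 15.0 and 17.7 CPM in the LQJE brains and 5.82 and 5.24 CPM in the HQJE brains, and mylpfa was at 0 in both HQJE brains. The myeloid peroxidase gene mpx, the single match of 9 markers of microglia and blood, was at 5.29, 2.79, 8.32 and 17.3 CPM in fish 17, 18, 15 and 11, highest in fish 11 like the 4 genes but lowest in fish 18. The pineal and retina markers tph1a and saga, 2 matches of 5, summed to 16.2, 13.2, 72.8 and 21.1 CPM in the same brains, highest in fish 15, and saga was at 1.67 CPM in fish 11 and at 1.67 and 1.63 CPM in the LQJE brains. All these markers come from the list chosen on the same brains, so their order over the brains was partly set by that choice. The muscle markers, higher in LQJE fish, could not share the order of the 4 genes. The part of these cell types in the levels of the 4 genes was not tested. Of 8 glial, 3 endothelial and 4 pituitary markers 0 could be matched by name.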

How the data were processed

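Brains of 4 adult Y-II males were sequenced, 1 library per brain, in groups of 2 taken from the sample labels. Reads were trimmed and filtered by the authors and mapped with Bowtie2 to X. multilineatus transcripts that carry the identifier of their best X. maculatus match. The deposited values are raw counts per transcript. How pairs, strands and multiple matches were counted is not given.

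Transcripts with no count (398) were left out. The other 18474 were fitted with edgeR 4.0.16 (R 4.3.3, limma 3.58.1), using TMM scaling and the quasi-likelihood test, with Benjamini-Hochberg adjustment over all of them. Standard errors were derived from the test, as the size of the log2 fold change over the square root of F. Log2 CPM used a prior count of 2. On simulated data for HQJE over LQJE (18368 transcripts), 189 of 200 transcripts changed 4-fold and 110 unchanged ones were called. Changes near 2-fold, such as those of npas4a, nr4a1 and socs3a, were not simulated. In the data 35 transcripts were called in all, fewer than the unchanged ones called in the simulation, so it gives no error rate for these brains. With 2 brains against 2 the smallest two-sided permutation p is 0.333. Whether the brains of a group came from separate families or tanks is not given, so the spread is that between these samples.

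The genes and lists were chosen with earlier results of these data known. The genes named are the 4 genes, the 3 transcripts closest in profile to each, and listed markers; xdh was named for its place at the threshold and irf1b as a cytokine-induced gene of the same list. Gene names came from the supplementary list of the study, whose fold changes and p-values were not used. Alternatives were the edgeR exact and likelihood ratio tests, DESeq2 1.42.0, other scalings, the filterByExpr filter, each brain left out, and a minimum of 5 CPM for profiles. No sequences or coordinates were used here.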

Additional observations from a re-analysis of the deposited data

How the results depend on the processing

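All 40 log2 fold changes of the 4 genes under the 10 alternatives were positive. This follows from genes chosen on the group difference whose groups do not overlap. Of the 40, 37 moved by less than the SD between brains of a group, and the exceptions came from leaving out a brain. This count is no sign of stability. The SD comes from the same brains that are left out, so few values can move beyond it, and npas4a at 0.55 without fish 17 counts as within it. The other alternatives refit the same 4 brains. With a brain left out the range was from 0.55 to 2.11 for npas4a and 0.57 to 1.58 for nr4a1. It was from 1.65 to 2.51 for dusp2 and 0.58 to 1.47 for socs3a. Of the 4 genes 1 was past the threshold in the quasi-likelihood test, 4 in the edgeR exact test, 3 in the likelihood ratio test and 3 in DESeq2, and 0 to 3 in the quasi-likelihood test with each brain left out, where the lone brain of a group is assumed to vary like the other group. Without fish 17, and without fish 11, the log2 fold changes of npas4a (0.55 and 0.74) and nr4a1 (0.90 and 0.57) were below the 2-fold limit. That of socs3a was below it without fish 11 (0.58) and not without fish 17 (1.01), and that of dusp2 was above it in both fits. Over all transcripts 35 were past it in the quasi-likelihood test, 133 in the exact test, 121 in the likelihood ratio test and 53 in DESeq2, and 56 to 348 with each brain left out. No transcript had an adjusted p of 0.05 or less (Benjamini-Hochberg) in the quasi-likelihood test, and 1403 had an unadjusted p of 0.05 or less, against 35 with an adjusted p of 0.05 or less in the exact test, 42 in the likelihood ratio test and 79 in DESeq2. The cause was not tested. With other scalings or filterByExpr dusp2 remained the gene past the threshold. With a minimum of 5 CPM 5 of the 12 closest transcripts were kept, since fewer transcripts were ranked, and without TMM scaling all 12 were. No paired analysis was made, because the sources used here describe no pairing between fish of the 2 groups. Depth limits dusp2 most, with 19 counts in fish 17, and with 2 brains in each group the spread between fish rests on few samples.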

Other observations

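The gene irf1b (ENSXMAT00000011129) encodes an interferon regulatory factor, which in mammals is induced by cytokines through STAT proteins, as SOCS3 is. It was read 171, 399, 154 and 108 times in fish 17, 18, 15 and 11, or between 4.88 and 15.9 CPM. The groups did not overlap, and the direction was opposite to that of socs3a, with a log2 fold change of HQJE over LQJE of -1.26 (standard error 0.248). Both genes were chosen on this difference. Within the HQJE group the ratio of fish 11 over fish 15 was 0.697 for irf1b (95% counting interval from 0.540 to 0.897) and 1.85 for socs3a (95% counting interval from 1.56 to 2.20). These ratios are not independent of that choice, since fish 11 is part of the HQJE mean. Within the LQJE group the ratio of fish 18 over fish 17 was 1.28 for irf1b (95% counting interval from 1.07 to 1.54). For socs3a it was 1.13 (95% counting interval from 0.859 to 1.49), and since this interval includes 1 no direction is read from it. Both fish are likewise part of the LQJE mean. Fish 11 was thus the highest brain for socs3a and the lowest for irf1b.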
